A study of Mus musculus with 6 samples.

Results

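The genes described here are 10 orphan nuclear receptors, *Nr2f1*, *Nr2f2*, *Nr2f6*, *Nr2c1*, *Nr2c2*, *Nr6a1*, *Nr5a2*, *Nr0b1*, *Nr1d1* and *Nr1d2*, out of 20631 genes measured by RNA-seq. They were taken by their gene symbols, and the 14 RefSeq transcripts carrying these symbols were summed per gene. The cells were neuromesodermal progenitors (NMPs) made from mouse embryonic stem cells (ESCs) by 3 days with bFGF, the last of them also with the WNT agonist CHIR99021. NMPs are bipotent cells of the caudal epiblast that give rise to spinal cord and somites. For the last 2 h they were kept without bFGF and CHIR99021 in DMSO, 25 nM retinoic acid (RA) or 1 µM RA, with 2 samples per condition and 6 in all. No group carries a genetic change, the B27 supplement contained no retinoids, and the duplicates are separate culture dishes that the methods call technical replicates, so that p-values measure the spread between dishes of a single ESC line. The labels give that line as 129 R1 and the methods as C57BL/6. Both RA conditions were compared with the same DMSO samples.

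Nuclear receptors are transcription factors with a DNA-binding zinc finger domain and a ligand-binding domain. Retinoic acid receptors bind RA and pair with retinoid X receptors on direct repeats of the hexamer AGGTCA. Orphan receptors were named for lacking a known ligand when they were found, and many of them bind the same hexamer, alone or as pairs, and recruit corepressors. The COUP transcription factors (*Nr2f1*, *Nr2f2* and the related *Nr2f6*) and the testicular receptors (*Nr2c1*, *Nr2c2*) are known to compete with RA receptors for direct repeats. *Nr6a1*, the germ cell nuclear factor, represses *Pou5f1* as ESCs differentiate and is needed for trunk development, whereas *Nr5a2* activates *Pou5f1* in the epiblast. *Nr0b1* lacks the usual zinc fingers and acts as a corepressor of *Nr5a* receptors, and *Nr1d1* and *Nr1d2* are heme-binding repressors of the circadian clock.

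Estimated counts of the authors summed to between 31753556 and 42029348 per sample, and TMM factors lay between 0.989 and 1.01. The 6 genes listed as known to respond to RA, among them *Rarb*, *Cyp26a1*, *Dhrs3*, *Hoxb1* and *Stra8*, all rose at both doses, and their summed RPKM went from between 58.1 and 59.9 in DMSO to between 222 and 226 at 25 nM and between 333 and 344 at 1 µM. Of the 13 NMP markers, 12 exceeded 1 RPKM in DMSO, among them *T* at 375 RPKM and *Sox2* at 5.20 RPKM, and the exception was *Cdx4*. Genes listed as markers of other cells were also detected. In bulk samples they do not tell other cells from progenitors that express the same genes. Of the 8 pluripotent cell markers, *Pou5f1* at 445 RPKM, *Nanog* at 19.3 and *Zfp42* at 5.11 exceeded 1 RPKM in DMSO. Of the 7 endoderm markers, 5 did, and of the 9 feeder fibroblast markers, 3 did. Among the 6 neural markers *Nes* and *Tubb3* did, whereas *Sox1* and *Pax6* stayed at 0.237 and 0.0524 RPKM. No marker was at 0 in both samples of a condition.

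At baseline these receptors spanned a 971-fold range of level per transcript length. *Nr6a1* was the highest in DMSO, with 26.7 and 26.5 RPKM in the duplicates, followed by *Nr2f6* with 19.7 and 21.3 RPKM. *Nr2c2* had 6.64 and 6.81 RPKM, *Nr1d2* 4.87 and 4.66 RPKM and *Nr2c1* 2.28 and 2.35 RPKM, so that 5 members exceeded 1 RPKM. *Nr1d1* lay below that level, at 0.688 and 0.744 RPKM. The duplicates of neighbours in this order did not overlap from *Nr6a1* down to *Nr5a2*, which had 0.234 and 0.233 RPKM. *Nr0b1*, at 0.0757 and 0.237 RPKM, could not be separated from *Nr5a2* above it or from *Nr2f1* below it, since their duplicates overlapped. *Nr2f1*, at 0.0842 and 0.0583 RPKM, stood above *Nr2f2*, at 0.0322 and 0.0226 RPKM, by a few reads. *Nr6a1* and *Nr2f6* held 75.8% of the summed RPKM of the members in DMSO, and 75.7% and 75.6% at 25 nM and 1 µM RA.

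**Figure D1:**
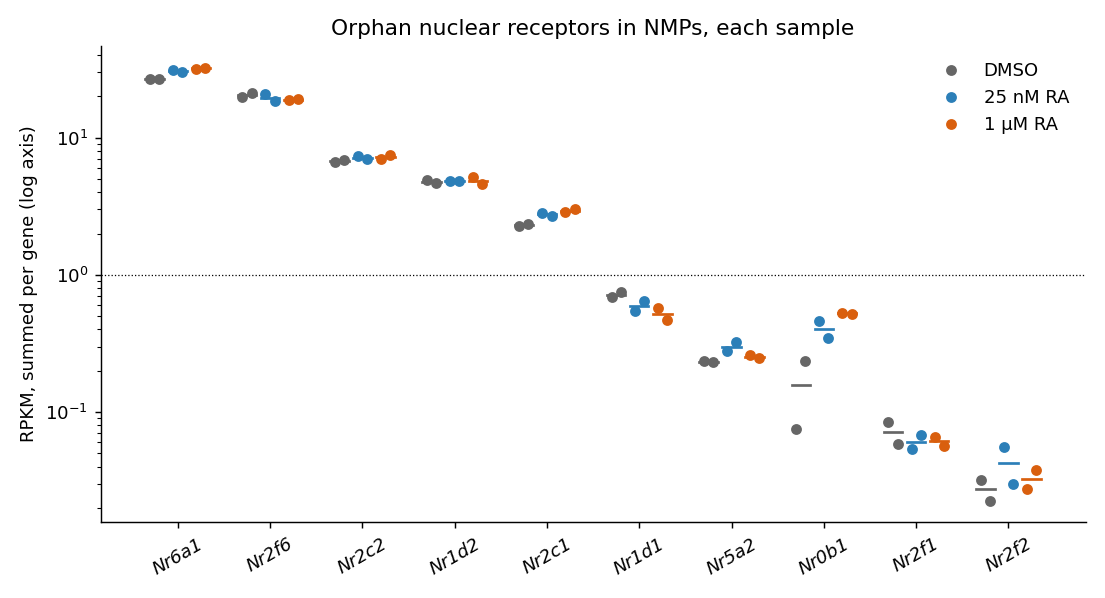
RPKM of the 10 orphan receptors on a log axis, with a point for each sample and a bar for the mean of the 2 samples of DMSO, 25 nM RA and 1 µM RA. The same 5 members lie above the dotted line at 1 RPKM in every sample, and *Nr0b1* is the member whose DMSO points lie farthest below its RA points.

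Among all 49 nuclear receptor genes of the files, *Nr6a1* and *Nr2f6* ranked first and second in DMSO, above *Rxrb* at 16.9 RPKM and *Nr1h2* at 15.4 RPKM. The duplicates of *Nr2f6* lay above those of *Rxrb*, which had 16.8 and 16.9 RPKM. *Nr2c2* and *Nr1d2* ranked 8 and 9, so that 4 members stood among the 10 highest. The 10 members together made up 42.0% of the summed RPKM of the superfamily, and *Nr6a1* by itself 18.0%. Members were also found near the bottom, with *Nr2f1* at rank 35 and *Nr2f2* at rank 41. These are shares of RPKM over different genes and carry no test.

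The first question was which of these receptors responded within 2 h of RA. A gene was called when its adjusted p was under 0.1 by the likelihood ratio test of edgeR, after Benjamini-Hochberg adjustment over the 15143 genes that passed the filter on low counts. Of the 10 members 8 passed this filter, and *Nr2f1* and *Nr2f2* did not. *Nr0b1* passed it only through its RA samples, since a single DMSO sample would not have sufficed, so that its presence among the tested genes is not independent of its rise. At 25 nM RA 3 members rose (*Nr0b1*, *Nr6a1* and *Nr2c1*) and none fell. Over all genes 8.05% were called, 4.5% as higher and 3.55% as lower. At 1 µM RA *Nr0b1*, *Nr6a1* and *Nr2c1* rose and *Nr1d1* fell, 4 members in all, where 19.7% of all genes were called, 8.54% as higher and 11.2% as lower. edgeR's quasi-likelihood test called 3 members at 25 nM, where it called 6.91% of all genes, and 3 at 1 µM, where it called 19.2% of all genes and left *Nr1d1* uncalled. The median log2 fold change of the 8 tested members was 0.14 at 25 nM and 0.10 at 1 µM, against -0.00051 and 0.0013 over all genes. RPKM values of the groups did not overlap for 6 members at 25 nM and 7 at 1 µM. With 2 samples a group this is common, and it held for 44.4% and 54.4% of all genes tested. No member passed the size thresholds of the study, which ask for a log2 fold change above 1 with more than 1 RPKM for a rise, or below -0.6 with more than 7 RPKM for a fall. In these bulk samples a change in RNA per cell and a change in the share of cells expressing a gene cannot be told apart.

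**Figure D2:**
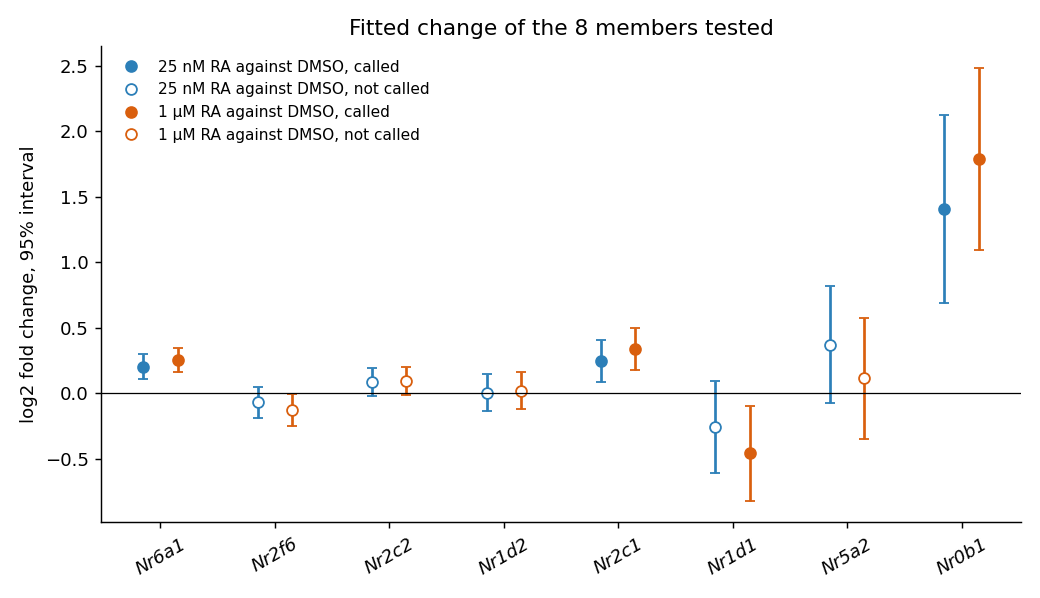
Fitted log2 fold change of the 8 tested members for 25 nM RA and 1 µM RA against DMSO, with 95% intervals from the standard error of the fit. Filled points are called at an adjusted p under 0.1 by the likelihood ratio test, and the rise of *Nr0b1* exceeds every other change in size, with intervals that are also the widest.

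*Nr0b1* had the greatest fold change of the members. The gene (NM_007430, plus strand of chromosome X from 86191775 to 86195946 of mm10) encodes the corepressor Dax1, which is known from the adrenal gland and gonads and is also part of the transcription factor network of ESCs. Its estimated counts were 7 and 18 in DMSO, 32 and 30 under 25 nM RA, and 41 and 41 under 1 µM RA. In RPKM the DMSO samples had 0.0757 and 0.237, the 25 nM samples 0.463 and 0.345, and the 1 µM samples 0.526 and 0.519. All RA samples lay above both DMSO samples, and the lower DMSO count came from the deepest of the 6 libraries. The log2 fold change was 1.41 (standard error of the fit, SE, 0.37, adjusted p = 0.0017, edgeR likelihood ratio test) at 25 nM and 1.79 (SE 0.35, adjusted p = 1.7e-06) at 1 µM, which is a 2.65-fold and a 3.46-fold rise. By the quasi-likelihood test the adjusted p was 0.044 and 0.0026. The size rests on the DMSO samples. Without DMSO replicate 1 it was 0.74 at 25 nM, which was no longer called (adjusted p = 0.43, edgeR), and 1.12 at 1 µM (adjusted p = 0.024). Without DMSO replicate 2 it was 2.38 and 2.76. The 25 nM call was also lost in the fit of single transcripts (1.38, adjusted p = 0.32), by DESeq2 (1.39, adjusted p = 0.22) and by limma on log2(RPKM + 0.1) (1.04, adjusted p = 0.11). Of the pluripotent cell markers 1 of 8 rose at either dose, *Tbx3*, from 0.121 RPKM in DMSO to 0.364 and 0.425, while *Nanog* had 19.3, 19.2 and 20.2 RPKM. The summed RPKM of that list ranged from 460 to 483 in DMSO, from 463 to 497 at 25 nM and from 480 to 492 at 1 µM, most of it from *Pou5f1*, and its part in the rise of *Nr0b1* was not tested.

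**Figure D3:**
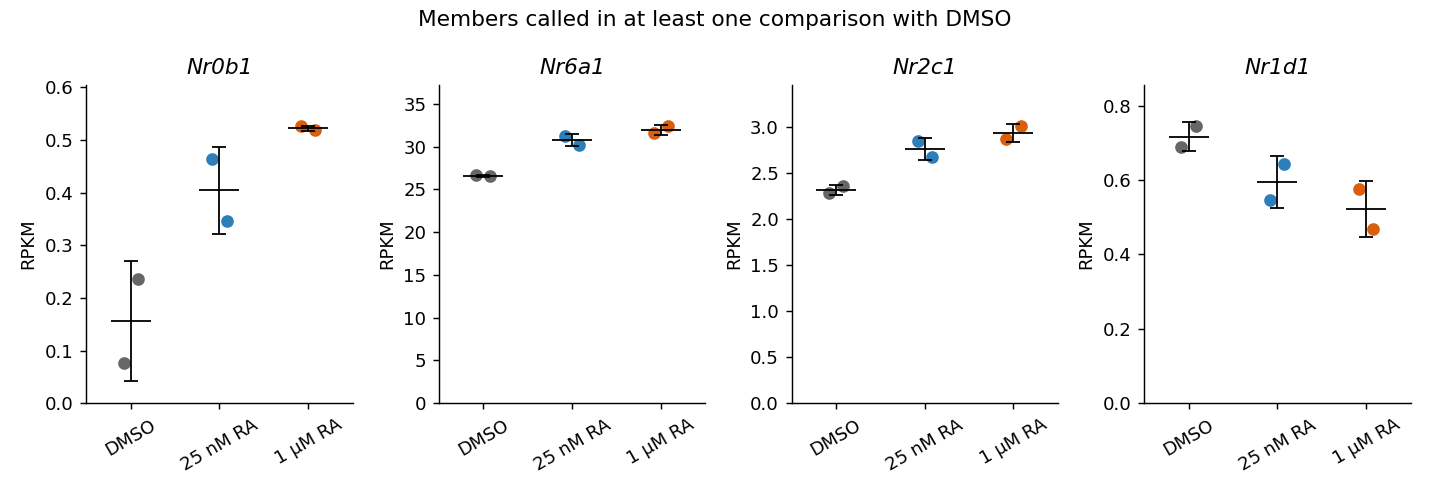
RPKM of *Nr0b1*, *Nr6a1*, *Nr2c1* and *Nr1d1* in each sample, with the mean and SD of the 2 samples per condition and axes from 0. RA samples lie above both DMSO samples for the first 3 genes and below them for *Nr1d1*, and the points of *Nr0b1* in DMSO lie farthest apart for their mean.

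The sequence before the start of *Nr0b1* is shown because it is the member with the strongest response and because it holds the receptor hexamer. RefSeq's window of 250 bases before the start (GRCm38.p6, plus strand) is printed with AGGTCA in capitals.
Nr0b1, chrX:86191525-86191774: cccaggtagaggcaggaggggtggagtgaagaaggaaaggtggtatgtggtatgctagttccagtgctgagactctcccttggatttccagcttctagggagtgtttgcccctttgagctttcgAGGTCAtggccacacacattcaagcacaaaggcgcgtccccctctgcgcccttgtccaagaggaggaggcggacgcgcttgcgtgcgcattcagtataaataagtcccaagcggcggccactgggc
The hexamer begins 126 bases before the start. On both strands, AGGTCA was found in 14% of 32851 promoter windows of this length, and in 4 of the 13 windows of the members, those of *Nr0b1*, *Nr5a2*, *Nr1d2* and *Nr6a1*. None of the 13 held a direct repeat of AGGTCA with 0 to 5 bases between the hexamers, which at most 0.0335% of all windows held for any spacing. Such a match is a description of the letters and not a binding site.

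*Nr6a1* was the most abundant member and rose by a small amount with little spread. Its RPKM was 26.7 and 26.5 in DMSO, 31.3 and 30.2 under 25 nM RA, and 31.6 and 32.4 under 1 µM RA. The lowest RA sample thus stood above the highest DMSO sample. The log2 fold change was 0.20 (SE 0.048, adjusted p = 0.00067, edgeR likelihood ratio test) at 25 nM and 0.25 (SE 0.048, adjusted p = 2.3e-06) at 1 µM, a rise of 15.1% and 19.3%. With each sample left out in turn it stayed between 0.19 and 0.22 at 25 nM and between 0.24 and 0.26 at 1 µM, with an adjusted p of at most 0.052 and 0.0017. *Pou5f1*, the gene that *Nr6a1* is known to repress, had 432 and 458 RPKM in DMSO, 470 and 434 at 25 nM and 463 and 452 at 1 µM. Its groups overlapped. The log2 fold change of *Pou5f1* was 0.018 at 25 nM (95% interval from -0.086 to 0.12) and 0.030 at 1 µM (95% interval from -0.075 to 0.13), and neither was called.

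The 3 *Nr6a1* transcripts lie on the minus strand of chromosome 2 and end together at 38723374 of mm10. NM_010264 starts at 38926461, far upstream of NM_001159548 and NM_001159549, which both start at 38784515. The authors' estimation gave NM_010264 between 42.9% and 49.3% of the gene's counts. Its RPKM was 12.3 and 12.5 in DMSO, 14.1 and 14.5 under 25 nM RA, and 13.1 and 14.9 under 1 µM RA. Fitted by itself among transcripts it was not called at either dose, with a log2 fold change of 0.20 (SE 0.073, adjusted p = 0.14) and 0.16 (SE 0.073, adjusted p = 0.20). NM_001159548 was called at both doses, with 6.64 and 6.52 RPKM in DMSO, 8.30 and 7.94 at 25 nM (log2 fold change 0.30, adjusted p = 0.023) and 9.21 and 8.09 at 1 µM (log2 fold change 0.39, adjusted p = 0.00034). NM_001159549 went from 7.73 and 7.49 RPKM to 8.82 and 7.78 at 25 nM (log2 fold change 0.12, adjusted p = 0.76) and rose to 9.23 and 9.41 at 1 µM (log2 fold change 0.28, adjusted p = 0.0052). These last transcripts share their span and have lengths of 5877 and 5874 bases, so that the division of reads between them rests on the estimation. A difference between transcripts in their response was not tested.

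**Figure D4:**
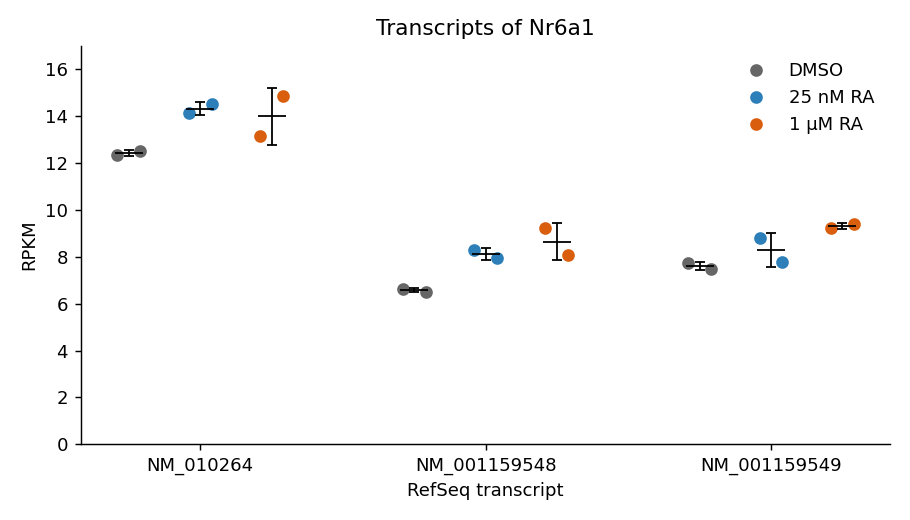
RPKM of the 3 RefSeq transcripts of *Nr6a1* in each sample, with the mean and SD of the 2 samples per condition. NM_010264 is the highest of the 3 in every condition, and its samples at 1 µM RA, 13.1 and 14.9 RPKM, lie farther apart than those in DMSO.

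Since reads were assigned to both starts, the windows of 250 bases before each are given to show how they differ (RefSeq, GRCm38.p6, minus strand, read in the direction of the gene). Capitals mark TGACCT, the reverse complement of the hexamer.
Nr6a1, upstream start, chr2:38926462-38926711: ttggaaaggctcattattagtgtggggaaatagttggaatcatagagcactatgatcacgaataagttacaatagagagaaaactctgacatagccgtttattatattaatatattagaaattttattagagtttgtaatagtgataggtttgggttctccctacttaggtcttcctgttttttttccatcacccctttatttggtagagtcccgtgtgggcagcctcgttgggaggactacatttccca
Nr6a1, downstream start, chr2:38784516-38784765: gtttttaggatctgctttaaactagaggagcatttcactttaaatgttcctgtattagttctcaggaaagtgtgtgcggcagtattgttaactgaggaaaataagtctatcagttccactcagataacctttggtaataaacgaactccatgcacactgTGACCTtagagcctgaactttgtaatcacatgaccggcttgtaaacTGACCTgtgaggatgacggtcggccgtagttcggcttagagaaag
The downstream window holds the hexamer at 91 and 45 bases before the start on the opposite strand, and the upstream window holds none. GC content was 37.6% upstream and 42% downstream, against a median of 52.4% over all promoter windows.

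Of the testicular receptors *Nr2c1* rose and *Nr2c2* was not called. These proteins form a heterodimer on direct repeats and are known to silence embryonic globin genes together with Dnmt1 and the demethylase Kdm1a. *Nr2c1* (NM_011629, plus strand of chromosome 10 from 94147931 to 94197214) had 2.28 and 2.35 RPKM in DMSO, 2.84 and 2.67 under 25 nM RA, and 2.87 and 3.00 under 1 µM RA. Every RA sample exceeded both DMSO samples. The log2 fold change was 0.25 (SE 0.083, adjusted p = 0.047, edgeR likelihood ratio test) at 25 nM and 0.34 (SE 0.082, adjusted p = 0.0006) at 1 µM, a rise of 18.6% and 26.2%. The call at 25 nM did not hold when any of the 4 samples compared was left out, with values from 0.21 to 0.28 and adjusted p from 0.12 to 0.37, and DESeq2 gave it an adjusted p of 0.57. At 1 µM the log2 fold change stayed between 0.30 and 0.37 with any sample left out. The call at 1 µM was lost when NM_011629 was fitted among transcripts (0.33, adjusted p = 0.1, edgeR likelihood ratio test). *Nr2c2* (NM_011630, plus strand of chromosome 6 from 92091418 to 92173058) had 6.64 and 6.81 RPKM in DMSO, 7.29 and 7.03 at 25 nM and 7.0 and 7.42 at 1 µM. Although no RA sample fell to the DMSO values, the log2 fold changes of 0.086 (95% interval from -0.020 to 0.19) and 0.094 (95% interval from -0.011 to 0.20) were not called. In GENCODE, 30.7% of the exonic bases of *Nr2c2* are shared with *Mrps25* on the other strand. NM_011630 is the only transcript of *Nr2c2*, yet its estimated counts were not whole, with 2604.41 and 2195.65 in DMSO. Those of *Mrps25* were 2414.59 and 1935.36 in DMSO. In every sample the counts of both genes add up to a whole number, apart from rounding. The estimation thus divided shared reads between the genes across strands, and the level and change of *Nr2c2* rest partly on that division. *Mrps25*, which was looked at after its overlap was seen, had log2 fold changes of 0.12 and 0.11, also not called.

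The COUP transcription factors were close to absent in these cells. *Nr2f1* (NM_010151, minus strand of chromosome 13 from 78188973 to 78198982) had estimated counts of 10.5 and 6 in DMSO, 5 and 8 under 25 nM RA, and 7 and 6 under 1 µM RA. *Nr2f2* (chromosome 7, minus strand, from 70351950 to 70366746 over its 2 transcripts) had 7 and 4, then 9 and 6, then 5 and 7. The conditions overlapped for both genes. When the filter was left out, the log2 fold changes of *Nr2f1* were -0.27 (SE 0.55) and -0.29 (SE 0.55), and those of *Nr2f2* 0.55 (SE 0.59) and 0.21 (SE 0.62), so that a change was not detectable at this depth. Both genes are known to respond to RA in other cells and later stages. NM_183261 held 64.8% of *Nr2f2* in replicate 2 of every condition and at most 0.241% in replicate 1. With 4 to 9 reads per sample and the same share in all replicate 2 samples, this split rests on the estimation. Nothing is read from it about replicates or treatment.

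*Nr2f6*, the third member of that family, was by contrast abundant. Its RPKM (NM_010150, minus strand of chromosome 8 from 71374119 to 71381952) was 19.7 and 21.3 in DMSO, 20.6 and 18.5 under 25 nM RA, and 18.7 and 19.0 under 1 µM RA. DMSO and 25 nM overlapped, and both 1 µM samples lay below both DMSO samples. The log2 fold changes of -0.071 (95% interval from -0.19 to 0.050, adjusted p = 0.71) and -0.13 (95% interval from -0.25 to -0.0046, adjusted p = 0.17) were not called, although scaling by total counts in place of TMM gave -0.15 at 1 µM with an adjusted p of 0.094. Of the 2983 exonic bases of *Nr2f6* in GENCODE, 54.4% are shared with *Ocel1* on the opposite strand, the largest overlap of any member. The transcript that was counted has 2218 bases, and its own overlap was not computed. Unlike those of *Nr2c2* and *Mrps25*, the estimated counts of *Nr2f6* and *Ocel1* were whole in every sample. *Ocel1* had 1.88 and 1.81 RPKM in DMSO.

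*Nr5a2* and *Nr0b1* encode an activator and its corepressor, and both were low. *Nr5a2* (chromosome 1, minus strand, from 136843584 to 136960448 over its 2 transcripts) had 0.234 and 0.233 RPKM in DMSO, 0.277 and 0.322 under 25 nM RA, and 0.258 and 0.249 under 1 µM RA, from 36 to 57 reads per sample. The RA samples lay above the DMSO samples, yet neither log2 fold change was called, 0.37 (95% interval from -0.078 to 0.82) at 25 nM and 0.11 (95% interval from -0.35 to 0.58) at 1 µM. The transcripts of *Nr5a2* stood at a ratio of 3.10 in every sample, so that they carry no separate information. *Nr5a1*, the other receptor that Nr0b1 is known to repress, had at most 2 reads in any sample.

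The clock repressors differed in level and in call. *Nr1d2* (NM_011584, minus strand of chromosome 14 from 18204056 to 18239106) had 4.87 and 4.66 RPKM in DMSO, 4.80 and 4.79 under 25 nM RA, and 5.16 and 4.56 under 1 µM RA. Its log2 fold changes were 0.0044 (95% interval from -0.13 to 0.14) and 0.020 (95% interval from -0.12 to 0.16). *Nr1d1* (NM_145434, minus strand of chromosome 11 from 98767932 to 98775377) had 0.688 and 0.744 RPKM in DMSO, 0.545 and 0.643 at 25 nM and 0.575 and 0.469 at 1 µM. All RA samples lay below both DMSO samples. The log2 fold change was -0.26 (SE 0.18, adjusted p = 0.57, edgeR likelihood ratio test) at 25 nM, and it fell by 0.46 on the log2 scale at 1 µM (SE 0.18, adjusted p = 0.071). The call at 1 µM is near the threshold. The quasi-likelihood test gave an adjusted p of 0.11, and the call was lost without DMSO replicate 1 (adjusted p = 0.14), without DMSO replicate 2 (adjusted p = 0.31) and without 1 µM replicate 2 (adjusted p = 0.40), the last with a log2 fold change of -0.31. *Nr1d1* shares 8.55% of its exonic bases with the end of *Thra*, the thyroid hormone receptor gene on the opposite strand. Unlike those of *Nr2c2* and *Mrps25*, the estimated counts of *Nr1d1* and *Thra* were whole in every sample. *Thra* had 3.10 and 3.24 RPKM in DMSO, 3.35 and 3.60 at 25 nM and 3.54 and 3.72 at 1 µM, with log2 fold changes of 0.14 and 0.19 that were not called.

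Of the 15 other clock genes, which include the activators *Clock* and *Arntl* that drive *Nr1d1* and *Nr1d2*, 14 were tested. At 25 nM RA 2 rose and none fell, where 8.05% of all genes were called. At 1 µM 2 rose and 1 fell, where 19.7% of all genes were called. *Bhlhe40*, a repressor that feeds back on the clock activators, rose from 4.15 RPKM to 8.47 at 25 nM (log2 fold change 1.02, adjusted p = 8e-38) and 9.64 at 1 µM (log2 fold change 1.21, adjusted p = 8.3e-55). *Per2* rose by 0.36 (adjusted p = 0.027) and 0.49 (adjusted p = 0.00012) on the log2 scale, from 0.737 RPKM. Its call at 25 nM was lost without DMSO replicate 1 (adjusted p = 0.17), DMSO replicate 2 (adjusted p = 0.17) or 25 nM replicate 2 (adjusted p = 0.37), and by DESeq2 (adjusted p = 0.52). *Per1* had a log2 fold change of -0.17 at 25 nM, which was not called, and fell by 0.70 at 1 µM (adjusted p = 1.8e-07). *Per1* and *Per2* thus had opposite signs at 1 µM, and *Per3*, added here after its value was seen, had -0.087 and was not called. *Clock* had log2 fold changes of 0.049 and 0.051 and *Arntl* of 0.13 and 0.18, none of them called. The median over the tested clock genes was 0.042 at 25 nM and 0.086 at 1 µM. The E-box CACGTG, which Clock and Arntl bind, was in 6.02% of all promoter windows of 250 bases and in none of the members' windows. Sequence farther upstream or within the genes was not searched, so that the members may hold E-boxes there.

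Setting 1 µM RA against 25 nM RA called none of the 8 members, where 3.41% of all genes were called, and 0 members had an unadjusted p under 0.05 by either edgeR test. DESeq2 and limma also called 0 members, but they called only 154 and 10 of all genes, so that nothing is read from their count. The log2 difference of 1 µM over 25 nM was 0.38 (95% interval from -0.16 to 0.93) for *Nr0b1*, 0.052 (95% interval from -0.041 to 0.14) for *Nr6a1*, 0.090 (95% interval from -0.068 to 0.25) for *Nr2c1* and -0.20 (95% interval from -0.58 to 0.18) for *Nr1d1*. The intervals for *Nr0b1* and *Nr1d1* are the widest of these 4. For comparison *Rarb*, an RA receptor gene, rose by a further 0.36 (adjusted p = 0.0003) from 25 nM to 1 µM.

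The other 39 nuclear receptors show what the members were set against. Of these, 25 were tested, of which 5 rose and 4 fell at 25 nM RA and 4 rose and 8 fell at 1 µM. Their median log2 fold changes were -0.00034 and -0.20. Of the 8 tested members 3 and 4 were called, and of all genes 8.05% and 19.7%. Frequent calls were thus not particular to the members among nuclear receptors. Among the 15 other orphan receptors, 9 were tested. *Esrra*, the estrogen-related receptor alpha, rose by 0.44 at 25 nM (adjusted p = 5.4e-08) and 0.37 at 1 µM. The *Nr4a* receptors, which are immediate early genes that act without a ligand, moved the other way. *Nr4a1* fell from 3.21 RPKM by 0.50 at 25 nM (adjusted p = 4.3e-05) and by 0.75 at 1 µM (adjusted p = 6.8e-11). *Nr4a3* fell by 0.61 at 25 nM (adjusted p = 0.055), a call that the quasi-likelihood test did not make (adjusted p = 0.13) and that was lost without either DMSO sample or 25 nM replicate 1 (-0.39, adjusted p = 0.55), and by 1.01 at 1 µM (adjusted p = 0.0001). *Nr4a2* had -0.55 at 25 nM, which was not called, and fell by 0.89 at 1 µM (adjusted p = 0.0064, and 0.10 without 1 µM replicate 2).

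All 6 retinoid receptors were tested. *Rara* rose from 3.42 to 10.1 and 10.8 RPKM (log2 fold changes 1.55 and 1.64) and *Rarb* from 0.237 to 5.28 and 6.77 RPKM (log2 fold changes 4.53 and 4.89). *Rarg* rose by 0.26 at 25 nM (adjusted p = 0.00052) and had 0.12 at 1 µM (adjusted p = 0.16), and *Rxra*, the common partner of the RA receptors, had -0.16 at 25 nM (adjusted p = 0.15) and fell by 0.24 at 1 µM (adjusted p = 0.0034, and 0.14 without DMSO replicate 1 or without 1 µM replicate 1). Among the steroid receptors *Nr3c1*, the glucocorticoid receptor, rose by 0.23 and 0.27, and *Pgr*, the progesterone receptor, fell by 0.47 and 0.50. The call of *Nr3c1* at 25 nM was lost without either DMSO sample or 25 nM replicate 2 (highest adjusted p 0.28), and that at 1 µM without 1 µM replicate 1 (adjusted p = 0.10). Of the 12 remaining liganded receptors 5 were tested and none was called at 25 nM. At 1 µM *Nr1h2*, a liver X receptor, fell by 0.17 (adjusted p = 0.041) and *Ppard* by 0.28 (adjusted p = 0.073, and not called by the quasi-likelihood test). Both calls were lost without either DMSO sample or 1 µM replicate 1, where *Nr1h2* had -0.12 (adjusted p = 0.33) and *Ppard* -0.16 (adjusted p = 0.53).

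**Figure D5:**
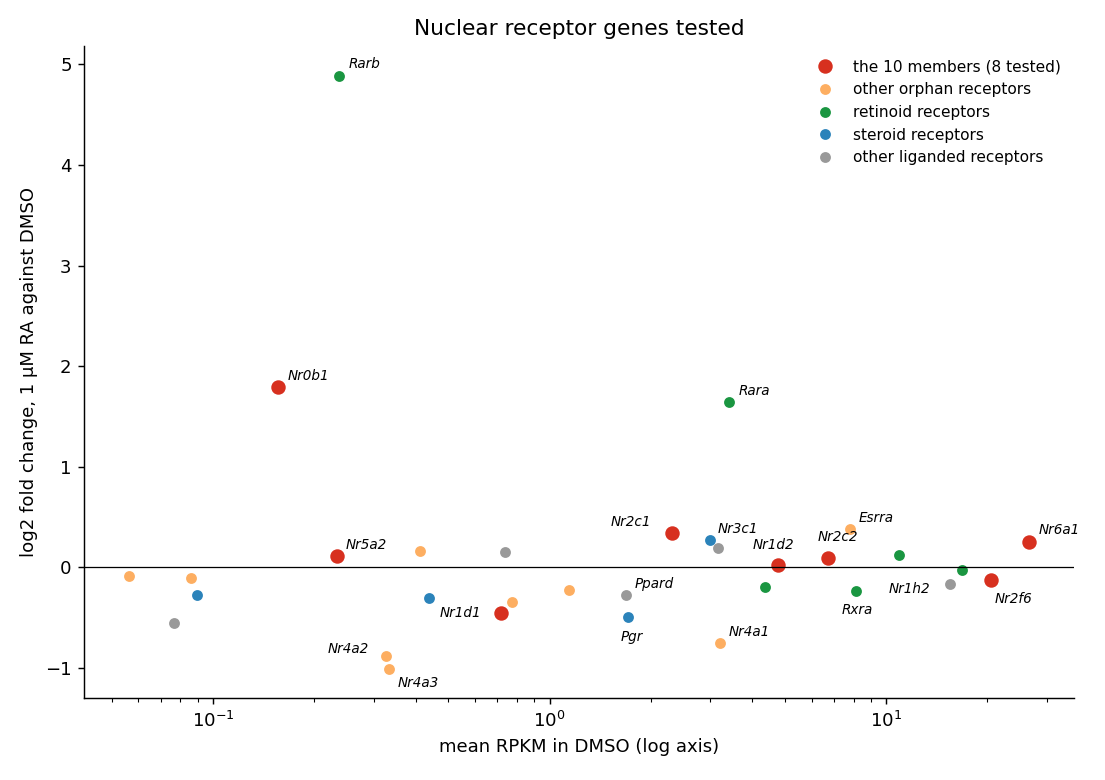
Log2 fold change at 1 µM RA against DMSO of nuclear receptor genes tested, by mean RPKM in DMSO on a log axis, colored by class, with names at the members and at genes called. *Nr0b1* lies at 1.79, between *Rarb* at 4.89 and *Rara* at 1.64, and the other 7 tested members lie between -0.46 and 0.34.

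Of the 13 listed corepressors and partners of these receptors, 11 exceeded 1 RPKM in DMSO. Of 13 such genes, all tested, 1 rose and 1 fell at 25 nM RA and 1 rose and 4 fell at 1 µM, with medians of -0.042 and -0.021. Over all genes 8.05% and 19.7% were called at these doses. *Nrip1*, a corepressor recruited by liganded receptors, rose from 2.66 to 7.05 and 8.02 RPKM (log2 fold changes 1.40 and 1.58). *Bcl11a*, which binds COUP transcription factors, fell by 0.48 at 25 nM (adjusted p = 0.0034, and 0.15 without DMSO replicate 2) and by 0.78 at 1 µM (adjusted p = 7.7e-08). At 1 µM *Zfpm1*, a zinc finger cofactor, fell by 0.33 (adjusted p = 1e-05). *Dnmt1*, *Kdm1a*, *Ncor1* and *Hdac3* are known from complexes of the testicular receptors and clock repressors in other cells, and no complex was measured here. These genes of the list had 58.8, 60.3, 18.1 and 43.8 RPKM in DMSO, and none was called at either dose.

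*Nr0b1*, the member with the smallest adjusted p at 1 µM RA, was compared with 11123 genes whose mean over all 6 samples exceeded 1 RPKM, with no sample at 0, by the root mean square difference of log2 RPKM from the DMSO mean over the 6 samples. The nearest was *Cyp26c1*, an RA-degrading enzyme, with a difference of 0.400. It had a mean of 0.488 RPKM in DMSO and 1.56 at 1 µM. *Cdx1* (0.452), *Sh2d5* (0.463), *2810459M11Rik* (0.468) and *Mnx1* (0.471) followed. The caudal homeobox gene *Cdx1* went from 6.36 to 21.8 and 24.4 RPKM and the homeobox gene *Mnx1* from 1.18 to 3.58 and 4.28. Genes below 1 RPKM in DMSO entered this search only through their RA samples, as *Cyp26c1*, *Sh2d5* and *2810459M11Rik* did, so that the filter favors genes that rise. With 7 to 41 reads of *Nr0b1* per sample this order is approximate. The difference also includes the gap between the DMSO duplicates of *Nr0b1*, at 0.0757 and 0.237 RPKM. The genes were thus matched partly on that gap and not only on the response to RA.

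Markers of other cells moved in the same samples. At 1 µM RA 3 of the 6 tested endoderm markers fell, among them *Sox17* from 6.76 to 3.43 RPKM and *Foxa2* from 14.4 to 9.78 RPKM, and the summed RPKM of the list went from between 37.9 and 38.6 in DMSO to between 30.5 and 30.8 at 25 nM and between 28.3 and 30.2 at 1 µM. Of the 8 tested feeder fibroblast markers 1 rose and 3 fell at 1 µM, and their sum went from between 15.7 and 16.3 to between 21.1 and 21.2 RPKM, mainly through *Pdgfra*, which mesoderm also expresses. The 4 tested neural markers included 1 that fell at 1 µM. Over all genes 8.54% were called as higher and 11.2% as lower at that dose. Any part of such cells in the changes of *Nr0b1*, *Nr6a1*, *Nr2c1* and *Nr1d1* was not tested.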

How the data were processed

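RNA-seq of NMPs from mouse ESCs comprised 6 samples, with groups taken from the sample labels. The authors depleted total RNA of ribosomal RNA, prepared stranded libraries, aligned single-end reads to mm10 with TopHat, and divided reads among transcripts with RefSeq identifiers by expectation-maximization. The submitters' processing notes list FastQC 0.11, TopHat2 2.0.13, Bowtie2 2.2.5.0 and Partek 6.6 without their roles. The deposited estimated counts are not normalized. The RPKM, also deposited, scale those counts by transcript length and sequencing depth. Whether counting used strand is not given in the sources used here, but the counts show reads divided between *Nr2c2* and *Mrps25* on opposite strands.

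For each of 30352 transcripts, counts and RPKM were summed per gene. Rounded counts of all 6 samples were fitted in edgeR 4.0.16 (R 4.3.3) with TMM, filterByExpr and the likelihood ratio test named by the methods, with 1 coefficient per condition and Benjamini-Hochberg adjustment over 15143 genes. Genes were called at an adjusted p under 0.1. RPKM entered tests only with limma 3.58.1 on log2(RPKM + 0.1) and log2(RPKM + 1) as an alternative. Further alternatives were the quasi-likelihood test, DESeq2 1.42.0, other scalings and filters, a replicate block, transcripts not summed and leaving out each sample. The fits were tested on simulated data.

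The members and lists were chosen with earlier results of these data known. All 10 members are named. From lists of the other nuclear receptors, clock genes and corepressors, called genes are named, at most 4 per list by the smallest adjusted p at 1 µM RA, with *Thra*, *Pou5f1* and the 5 genes nearest to *Nr0b1* in pattern. *Ocel1* and *Mrps25* and the marker genes given with values were picked after those were seen. Some genes counted in the lists are not reported by name or plotted here. Stop coordinates in the files are 1 beyond the last base, since 6827 transcripts match GENCODE (GRCm38) after subtracting 1 and 493 as written. Promoter windows are from RefSeq, where all 10 members have an entry. Correlations over genes of same-numbered deviations lay between -0.0615 and 0.0484. No deviation shared by most genes was thus seen, and a pairing that touches few genes would not be seen this way. Duplicates had a median chi-square per gene between 0.841 and 1.01, with means from 3.82 to 5.93. Both lie above what sampling of reads alone would give, and the duplicates were counted separately. Python 3.11.15 with pandas 2.3.3 and matplotlib 3.10.9 served for tables and plots.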

Additional observations from a re-analysis of the deposited data

How the results depend on the processing

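With 2 samples per condition and 7 to 41 reads of *Nr0b1*, precision for low members is limited by depth, and for all members by the spread of only 2 dishes. Leaving out a sample leaves a condition with 1 sample, which is then assumed to vary like the others.

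The number of genes called at 25 nM RA was 1219, and 744 when transcripts were not summed, 548 by DESeq2, and 696 and 699 by limma on log2(RPKM + 0.1) and log2(RPKM + 1). At 1 µM RA it was 2983, and 1639 when transcripts were not summed and 1549 by DESeq2. For 1 µM against 25 nM RA it was 516, and 340 at an adjusted p under 0.05, 336 by the quasi-likelihood test, 311 by that test with the replicate block (an alternative chosen after seeing the data), 154 by DESeq2 and 10 and 10 by limma. With a sample left out, the numbers ranged from 799 to 1345, from 1922 to 2838 and from 205 to 577. Of the genes called at 1 µM, 43.3% were higher, and 33.3% with scaling by total counts.

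The 3 members called at 25 nM became 0 when the most abundant transcript of each stood for the gene, 1 by DESeq2, 1 by limma on log2(RPKM + 0.1), and from 1 to 3 with a sample left out. The 4 called at 1 µM became 1 with the most abundant transcript and 2 by DESeq2, which gave *Nr0b1* no adjusted p there, and from 3 to 4 with a sample left out. No member was called between the doses under any alternative.

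Deviations of samples with the same replicate number did not correlate over genes, and the labels give the numbers no meaning. The transcript split of *Nr2f2* went with the number, but it rests on 4 to 9 reads per sample. With the replicate block, 1138, 2756 and 423 genes and 3, 4 and 0 members were called, and the quasi-likelihood test with the block called 2, 3 and 0 members, without *Nr2c1* at 25 nM.

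Alternatives were run for the members and for the genes named from the receptor, clock and corepressor lists, *Thra* and *Pou5f1*, and not for the marker genes, *Mrps25*, *Ocel1* or uncalled genes of those lists. Among the changes so examined, signs turned for those that were not called. With total counts, *Nr1d2* had -0.0038 at 25 nM and -0.00081 at 1 µM, and *Nr2c2* -0.0045 between doses. The most abundant *Nr6a1* transcript had -0.036 between doses. *Nr1h2* at 25 nM, at -0.00034, had 0.0039 with totals implied by RPKM, 0.0017 with only the 4 samples compared, 0.16 with its most abundant transcript, 0.00020 by DESeq2 and 0.0066 and 0.0062 by limma. With a sample left out, *Nr1d2* ranged from -0.018 to 0.032 at 25 nM, from -0.081 to 0.11 at 1 µM and from -0.087 to 0.11 between doses, and *Nr2f6* from -0.12 to 0.014 and *Nr2c2* from -0.026 to 0.039 between doses. *Nr1h2* ranged from -0.030 to 0.032, *Ppard* from -0.021 to 0.053 and *Pou5f1* from -0.032 to 0.069 at 25 nM, and *Pou5f1* from -0.017 to 0.081 at 1 µM.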
